A study of Drosophila melanogaster with 2 samples.

Results

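The cuticle protein genes of the Cpr, Ccp84A, Lcp and Twdl (Tweedle) families were examined in nuclei of Drosophila melanogaster embryos. Members were taken by symbol, as genes that begin with Cpr and a digit, Ccp84A, Lcp or Twdl and had at least 1 unique molecular identifier (UMI, a tag that counts single RNA molecules). The data listed 117 such symbols, of which 95 had a UMI, out of 11735 genes with a UMI in all. The study made 1 library of RNA and another of chromatin accessibility and contacts, from nuclei of embryos collected over 0 to 24 h. The labels name no genotype, treatment or other condition, and the sources used here do not give the number of embryos. Crosslinked nuclei were digested with restriction enzymes and proximity-ligated before 10x Genomics barcoding. Only the RNA was used, and the chromatin library was not analysed here.

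The cuticle is the outer skeleton of the insect, laid down by epidermal cells and by the tracheal and gut linings of ectodermal origin as layers of chitin fibres and protein. Most proteins of the Cpr, Ccp84A and Lcp families carry the Rebers-Riddiford domain, which binds chitin. Tweedle proteins form a separate family of cuticle proteins, known from TwdlD, in which mutations shorten and widen the larval body. In the embryo, cuticle genes are switched on late, after dorsal closure, when the first larval cuticle is made.

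The RNA library held 2233526 UMIs in 318 nuclei, with 279 to 123309 UMIs in a nucleus and a median of 2969. There was no replicate, so no test between groups was made, and 95% intervals cover counting error only. Levels are given as CPM, the UMIs of a gene scaled to 1000000 UMIs of the nuclei concerned. A transcript can reach the droplet of a nucleus that did not make it, and the share of nuclei with a UMI in types not known to make cuticle is given beside the shares below.

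Cuticle protein genes gave 22269 UMIs, or 0.997% of the library (exact binomial interval 0.984% to 1.01%). The Lcp family led with 9762 UMIs (4371 CPM, exact Poisson interval 4284 to 4458). It was followed by Cpr with 6026 UMIs (2698 CPM, 2630 to 2767) and Twdl with 5659 UMIs (2534 CPM, 2468 to 2601). The Ccp84A family had 822 UMIs (368 CPM, 343 to 394). Detection differed less than these sums: 283 of the 318 nuclei had an Lcp UMI, 283 a Cpr UMI, 278 a Twdl UMI and 146 a Ccp84A UMI. A few genes filled each family. The 3 leading genes held 89.5% of the UMIs of Ccp84A, 89.4% of those of Lcp, 55.5% of those of Twdl and 54.7% of those of Cpr. Of the 95 members, 54 had at least 20 UMIs, 30 had at least 100 and 18 had fewer than 5.

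**Figure D1:**
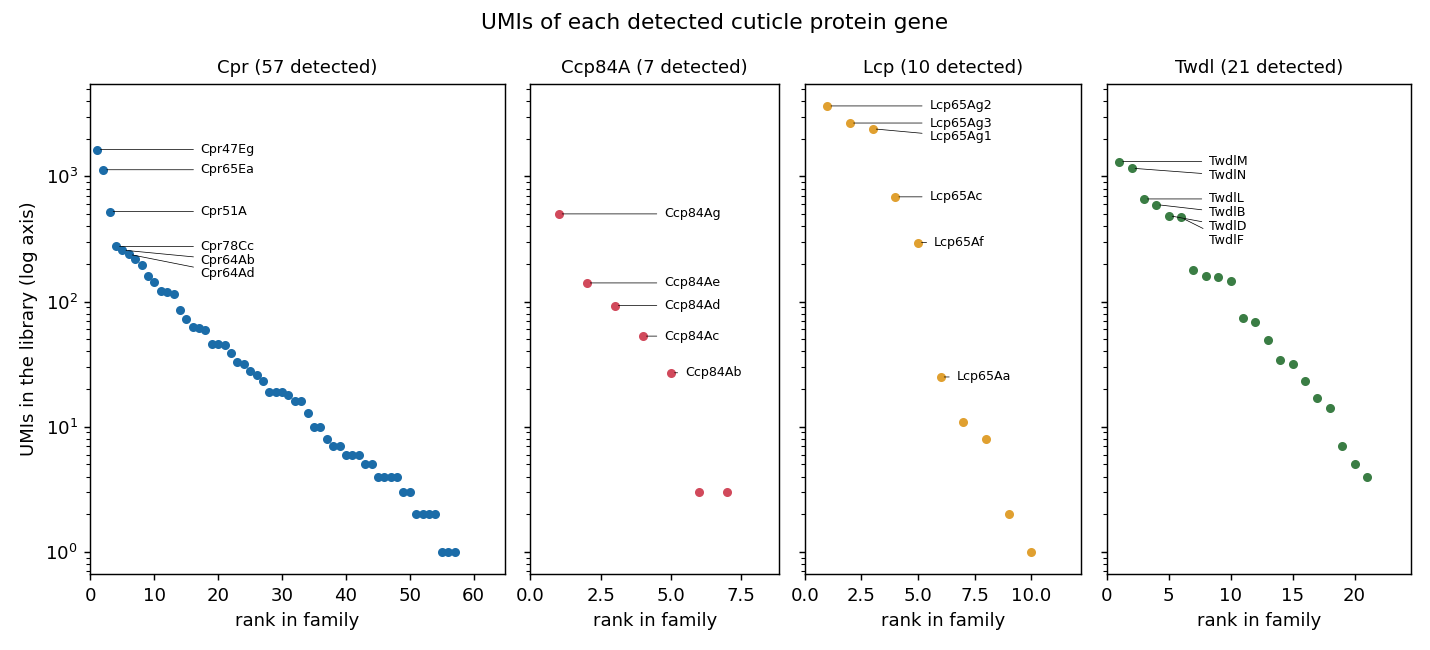
UMIs of the 95 detected cuticle protein genes over the whole library, by family and in descending order within it, on a log axis, with the leading genes named. The genes Lcp65Ag2, Lcp65Ag3 and Lcp65Ag1 stand at 2403 to 3658 UMIs, above every gene of the other families.

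Among the Lcp genes, which were first described as larval cuticle proteins, the Lcp65Ag genes accounted for most of the family. Lcp65Ag2 had 3658 UMIs in 236 nuclei, Lcp65Ag3 had 2671 in 220 nuclei and Lcp65Ag1 had 2403 in 206 nuclei, which together made 39.2% of all cuticle protein UMIs. These genes are near-identical copies, so their split is uncertain, and their sum was 8732 UMIs. Lcp65Ac followed with 687 UMIs, Lcp65Af with 296 and Lcp65Aa with 25. Lcp1 to Lcp4, known as abundant cuticle proteins of the third larval instar, had 0, 0, 1 and 11 UMIs. Also near-identical are Lcp65Ab1 and Lcp65Ab2, both at 0 UMIs.

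Cpr genes were led by Cpr47Eg with 1641 UMIs in 192 nuclei and Cpr65Ea with 1131 UMIs in 176 nuclei. Cpr51A had 524 UMIs, Cpr78Cc 276, Cpr64Ab 258 and Cpr64Ad 239. Of the 70 Cpr symbols 27 had at least 20 UMIs and 13 had none. The copies Cpr67Fa1 and Cpr67Fa2 had 144 and 195 UMIs, and Cpr65Ax1 and Cpr65Ax2 had 0 and 220, with the same uncertainty as to their split. Tweedle genes were spread more evenly, with 1313 UMIs of TwdlM, 1164 of TwdlN, 661 of TwdlL, 596 of TwdlB, 487 of TwdlD and 470 of TwdlF. In the Ccp84A family, Ccp84Ag had 502 UMIs, Ccp84Ae 141, Ccp84Ad 93, Ccp84Ac 53 and Ccp84Ab 27, and Ccp84Aa and Ccp84Af had 3 each. Set per kilobase of gene span in the reference annotation, Lcp65Ag2 was first at 6056 UMIs, followed by Lcp65Ag3 at 4422, Lcp65Ag1 at 4157, Cpr47Eg at 3356 and Cpr65Ea at 1866. A UMI counts a molecule whatever its length, so this scaling favours short genes and is no check of the order by UMIs.

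Many of these genes lie beside each other in the genome, and neighbours differed widely in their UMIs. In the order of the reference annotation, 16 arrays of at least 3 members with at most 5 other genes between neighbours were found. The array from Lcp65Ag3 to Cpr65Az held 17 members of the Lcp and Cpr families, of which 12 were detected, with 10050 UMIs in all. The array from TwdlM to TwdlQ held 13 Tweedle genes, 10 of them detected, with 4448 UMIs. The leading gene's share of an array varied. Cpr47Eg gave 95.4% of the 1720 UMIs of its array of 7 genes, Cpr65Ea 86.8% of the 1303 UMIs of its array of 3, and Ccp84Ag 61.1% of the 822 UMIs of the 7 Ccp84A genes. In other arrays the UMIs were shared, with 258 of Cpr64Ab and 239 of Cpr64Ad among 503, 195 of Cpr67Fa2 and 144 of Cpr67Fa1 among 355, and 48.3% of 176 for Cpr49Ag. The 3 genes from Cpr72Ea to Cpr72Ec had 2 UMIs in all.

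Cuticle protein RNA was concentrated in few nuclei. The median nucleus had 14 UMIs of the families, which was 0.450% of its RNA (quartiles 0.288% and 0.739%), and the highest nucleus had 17.0%. At least 1 UMI was found in 311 of the 318 nuclei. The 10 nuclei with the most cuticle protein UMIs held 48.7% of them, and the first 2 held 25.4%. Depth bears on this sum, since some of these nuclei are among the deepest. With every nucleus thinned to 1000 UMIs, which left out 48 shallower nuclei, the first 10 still held 35.8%, the median nucleus had 5 UMIs of the families and the highest 170.

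The 2 richest nuclei shared their leading genes but differed in other members. The first had 3090 cuticle protein UMIs among 18209 in all, from 37 members, with 601 UMIs of Lcp65Ag2, 440 of Lcp65Ag1 and 371 of Lcp65Ag3. It had 295 UMIs of TwdlM and 237 of TwdlL, and 1 UMI of the whole Ccp84A family. It also held 325 UMIs of the 9 hemocyte markers (17848 CPM, against 1687 CPM in the rest of its cluster), among them 157 of Col4a1 and 78 of vkg, both collagen IV chains, and 57 of Ppn, with He and Hml at 0. Their part in its cuticle level was not tested. The second nucleus had 2571 cuticle protein UMIs among 76485 in all, from 55 members, with 227 UMIs of Ccp84A genes (139 of Ccp84Ag and 77 of Ccp84Ae). It too was led by Lcp65Ag genes, with 431 UMIs of Lcp65Ag2, 306 of Lcp65Ag3 and 271 of Lcp65Ag1. The third, with 983 cuticle protein UMIs, was led by Cpr47Eg with 224 UMIs and Lcp65Ac with 216.

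Nuclei with at least 10 cuticle protein UMIs that made up at least 1% of their RNA are called cuticle-rich here. They numbered 55, or 17.3% of the nuclei (exact binomial interval 13.3% to 21.9%), and held 62.6% of the cuticle protein UMIs. Their depth was a median of 3673 UMIs, against 2915 in all other nuclei. The class is a range cut from a level, and 23 nuclei with at least 10 such UMIs lay between 0.8% and 1.2%, 10 of them inside and 13 outside. Within it, the leading gene was 1 of the Lcp65Ag genes in 30 nuclei, Cpr47Eg in 5, TwdlF in 3 and Ccp84Ag in 3, and 1 of 10 other genes in the rest. UMIs of all 4 families were found in 38 of the 55, and a nucleus held 6 to 55 members with a median of 17.

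**Figure D2:**
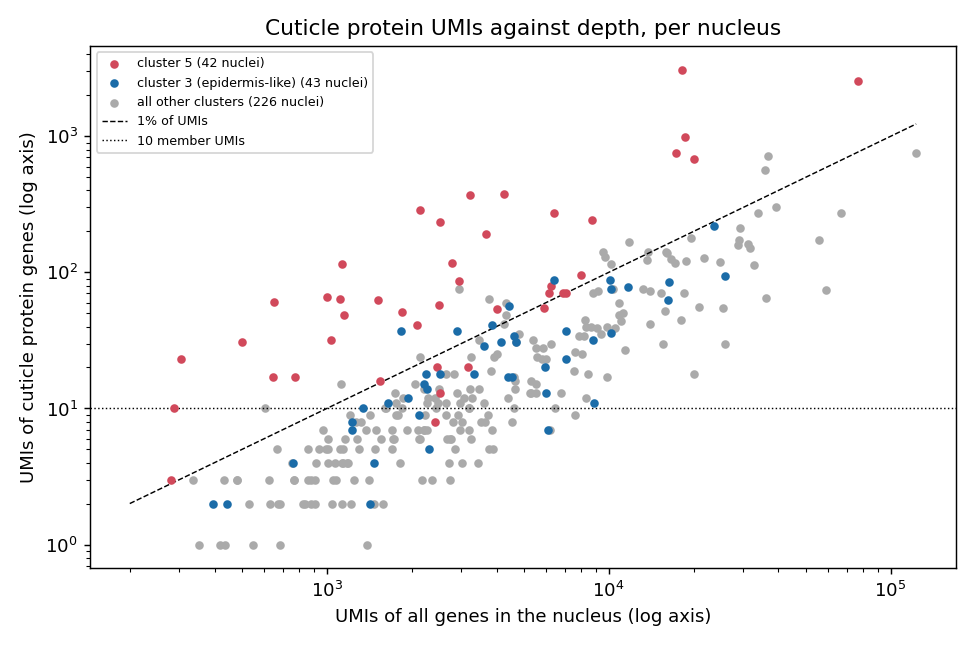
Cuticle protein UMIs against all UMIs of each nucleus with at least 1 cuticle protein UMI, both on log axes, with lines at 1% of UMIs and at 10 UMIs. Cluster 5 holds 36 of the 55 nuclei that lie above both lines, and cluster 3 (epidermis-like) holds 5.

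Family shares varied between cuticle-rich nuclei. Lcp genes made a median of 42.2% of a nucleus's cuticle protein UMIs (0% to 82.5%), Cpr genes 28.2% (3.33% to 86.4%), Twdl genes 22.7% (0% to 95%) and Ccp84A genes 1.55% (0% to 58.1%). Ccp84A genes had no UMI in 16 of the 55 nuclei and made at least 10% in 8 of them. In these 8, all in cluster 5 of the clustering below and picked out after their values were seen, the leading genes were Ccp84Ag (3 nuclei), Cpr64Ab (2), Cpr64Ad, Ccp84Ae and Cpr62Bc. One nucleus with 60 cuticle protein UMIs had 41 of TwdlF and 7 of its neighbour TwdlG, and 95% of its cuticle protein UMIs were Twdl. Another with 66 had 22 of Cpr65Ea and 20 of its neighbour Cpr65Ec.

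**Figure D3:**
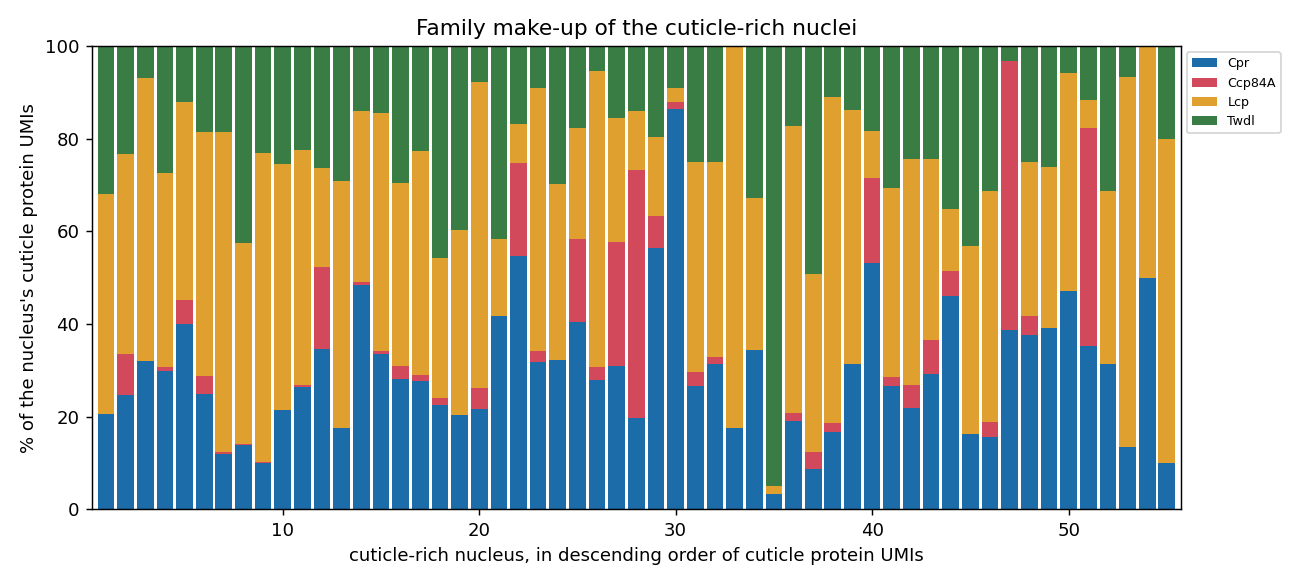
Share of each family in the cuticle protein UMIs of the 55 cuticle-rich nuclei, 1 bar a nucleus, in descending order of cuticle protein UMIs. Lcp, Cpr and Twdl UMIs make up most bars, and Ccp84A UMIs reach at least 10% in 8 of them.

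Single members rested on single nuclei to different degrees. Over the 54 members with at least 20 UMIs, the nucleus with the most UMIs of a gene held 6.96% to 54.6% of them, with a median of 18.1%. The share was above 50% for Ccp84Ae (54.6%, 77 of 141 UMIs in the second richest nucleus) and for Cpr47Eb (50.8%, 32 of 63 UMIs in the third richest). It was 7.44% for Cpr62Bc and 6.96% for TwdlY. The richest nucleus was the highest for 16 of the 54 members and the second richest for 11.

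To ask which nuclei carried the families, the nuclei were clustered without the members and without the pathway lists below, and clusters were named by marker genes. Of the 10 clusters, 4 carry a name here: epidermis-like (cluster 3, 43 nuclei), neuron-like (cluster 4, 63 nuclei), somatic muscle-like (cluster 8, 31 nuclei) and salivary gland-like (cluster 7, 7 nuclei). Cluster 5, with 42 nuclei, stayed unnamed, since it was higher in 3 epidermis markers (Osi15, Osi20 and pot) and as many tracheal ones (trh, btl and pio). Another 6 of the 25 epidermis markers (m, mwh, Osi6, Osi7, Osi14 and dyl) were over 2-fold lower there, and the list's sum was 4244 CPM in cluster 5 and 6052 CPM elsewhere. No tracheal marker was over 2-fold lower, and that sum was 1109 against 673 CPM. Of the tracheal markers, btl rested on 7 UMIs in cluster 5 and 22 in all (3.53-fold, 1.22 to 9.21). Without the nucleus of cluster 5 with the most UMIs of each, the ratios were 1.1 for Osi15 and 0.592 for Osi20, against 2.40 and 2.37 with it. Such values are not given here for the tracheal markers. The leading genes of cluster 5 were mostly uncharacterised, CG13679, CG13066 and CG13051 first, and Lcp65Ac was among them. The clusters were not stable. Leaving out 1 more gene, the dopamine transporter DAT, an alternative chosen after the data were seen, gave an epidermis-like class of 95 nuclei and 24 nuclei in the cluster richest in cuticle protein RNA.

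Cluster 5 had the highest level of cuticle protein RNA, at 44243 CPM (exact Poisson interval 43439 to 45058), against 5443 CPM in all other nuclei, an 8.13-fold ratio (7.92 to 8.35). Cluster 5 was taken up because of this level, so its ratios and the counts of members below follow in part from that choice. It held 51.8% of the cuticle protein UMIs in 11.7% of all UMIs. Its nuclei had 3 to 3090 cuticle protein UMIs with a median of 65, against 0 to 753 with a median of 12 in all other nuclei, so the ranges overlapped. Single nuclei weigh in the ratios of single genes below, and where leaving out the nucleus with the most UMIs of a gene, in cluster 5 or outside it, moved a named ratio by over 1.5 times, that value is given. Without the richest nucleus of each group the ratio was 6.45, and with nuclei thinned to 1000 UMIs it was 8.46. All families were higher there: Ccp84A 9.48-fold (8.24 to 10.9), Lcp 8.92-fold (8.57 to 9.28), Twdl 7.69-fold (7.30 to 8.11) and Cpr 7.22-fold (6.86 to 7.59). With DAT also left out of the clustering, the cluster with the highest level had 76477 CPM and a ratio of 9.52. All 24 of its nuclei were in cluster 5.

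Gene by gene, 44 of the 54 members with at least 20 UMIs were over 2-fold higher in cluster 5 than in all other nuclei on the scale of CPM + 10, against 4.23% of the 7983 genes with at least 20 UMIs. Only Cpr78E was over 2-fold lower, against 9.51% of all genes. The choice of cluster 5 by the summed level of the members favours the first count and works against the second. By family the counts were 22 of 27 Cpr, 4 of 5 Ccp84A, 5 of 6 Lcp and 13 of 16 Twdl genes. The median log2 ratio on that scale was 2.37 for the 54 members and -0.21 for all 7983 genes. Without the richest nucleus of each group 42 members were over 2-fold higher, and thinned to 1000 UMIs 21 of the 23 members that still had 20 UMIs were.

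Lcp65Ag2 had 0 to 601 UMIs in a nucleus of cluster 5 with a median of 6, against 0 to 159 with a median of 2 in all other nuclei. Its level was 7471 CPM in cluster 5 and 867 CPM elsewhere, an 8.61-fold ratio (8.07 to 9.20). The other Lcp65Ag copies were close to it, at 9.17-fold for Lcp65Ag1 and 7.89-fold for Lcp65Ag3. Lcp65Ac stood higher, at 1857 CPM against 103 CPM, or 18.1-fold (15.3 to 21.4), and 10.8-fold without the 1 nucleus of cluster 5 that held 216 of its 484 UMIs there. Of the 6 Lcp genes with at least 20 UMIs, Lcp65Aa was the 1 not past 2-fold on the scale of CPM + 10, with 5 UMIs in cluster 5 and 20 elsewhere (1.89-fold, 0.555 to 5.20). Its ratio was 0.820 without the highest nucleus of cluster 5 and 4.64 without the highest nucleus outside it.

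Cpr47Eg had 3258 CPM in cluster 5 and 401 CPM elsewhere, 8.12-fold (7.36 to 8.95), and Cpr65Ea had 2233 CPM and 278 CPM, 8.03-fold (7.13 to 9.03). Cpr64Ad was 10.5-fold higher (8.08 to 13.7), Cpr51A 8.43-fold (7.07 to 10.0), Cpr78Cc 7.04-fold (5.52 to 8.98) and Cpr64Ab 5.03-fold (3.88 to 6.50). Without the highest nucleus of cluster 5 for each gene, Cpr51A was at 5.15-fold and Cpr64Ab at 2.43-fold, and without the highest nucleus outside it Cpr64Ab was at 9.57-fold. The gene with the opposite pattern was Cpr78E, with 0 UMIs in cluster 5 and 33 in 15 other nuclei, which allows a ratio of up to 0.895. Cpr31A had 14 UMIs in cluster 5 and 32 elsewhere, 3.31-fold (1.63 to 6.39), but 12 of the 14 were in 1 nucleus, and without it the ratio was 0.513 (0.0595 to 2.01).

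TwdlM had 3185 CPM in cluster 5 and 245 CPM elsewhere, 13.0-fold (11.6 to 14.6), and TwdlL had 1662 CPM and 116 CPM, 14.4-fold (12.2 to 17.0). The richest nucleus held 237 of the 433 TwdlL UMIs in cluster 5, and without it the ratio was 7.0 (5.75 to 8.51). TwdlB was 11.4-fold higher, TwdlN 8.17-fold, Twdlbeta 7.86-fold and TwdlD 6.19-fold. Without the highest nucleus of cluster 5 for each gene, Twdlbeta was at 3.62-fold and TwdlD at 3.28-fold, and without the highest nucleus outside it Twdlbeta was at 12.8-fold. TwdlF did not share this pattern. It had 188 CPM in cluster 5 and 213 CPM elsewhere (ratio 0.881, 0.642 to 1.19), with 0 to 22 UMIs in a nucleus of cluster 5 and 0 to 65 in the others. The ratio was 0.520 without the highest nucleus of cluster 5 and 1.02 without the highest nucleus outside it. Its highest levels were 399 CPM in cluster 2, which has no name, and 366 CPM in the epidermis-like cluster. In cluster 2, the highest nucleus held 65 of the 206 TwdlF UMIs and another held 41, so the order of these clusters is uncertain. TwdlG, the neighbour of TwdlF, had 115 CPM in cluster 5 and 58.3 CPM elsewhere (1.97-fold, 1.28 to 2.97).

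Of the Ccp84A genes, Ccp84Ag had 1109 CPM in cluster 5 and 108 CPM elsewhere, 10.3-fold (8.58 to 12.3). Ccp84Ae had 437 CPM and 13.7 CPM, 32.0-fold (20.9 to 50.6), a value that rests largely on the second richest nucleus, which held 77 of its 114 UMIs in cluster 5. Without that nucleus it was 14.7-fold (8.70 to 25.1). Ccp84Ad was 4.57-fold higher and Ccp84Ab 7.03-fold, and Ccp84Ac had 15.3 CPM in cluster 5 and 24.8 CPM elsewhere (0.618, 0.162 to 1.69). Ccp84Aa and Ccp84Ab are near-identical, so the counts of either are uncertain.

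**Figure D4:**
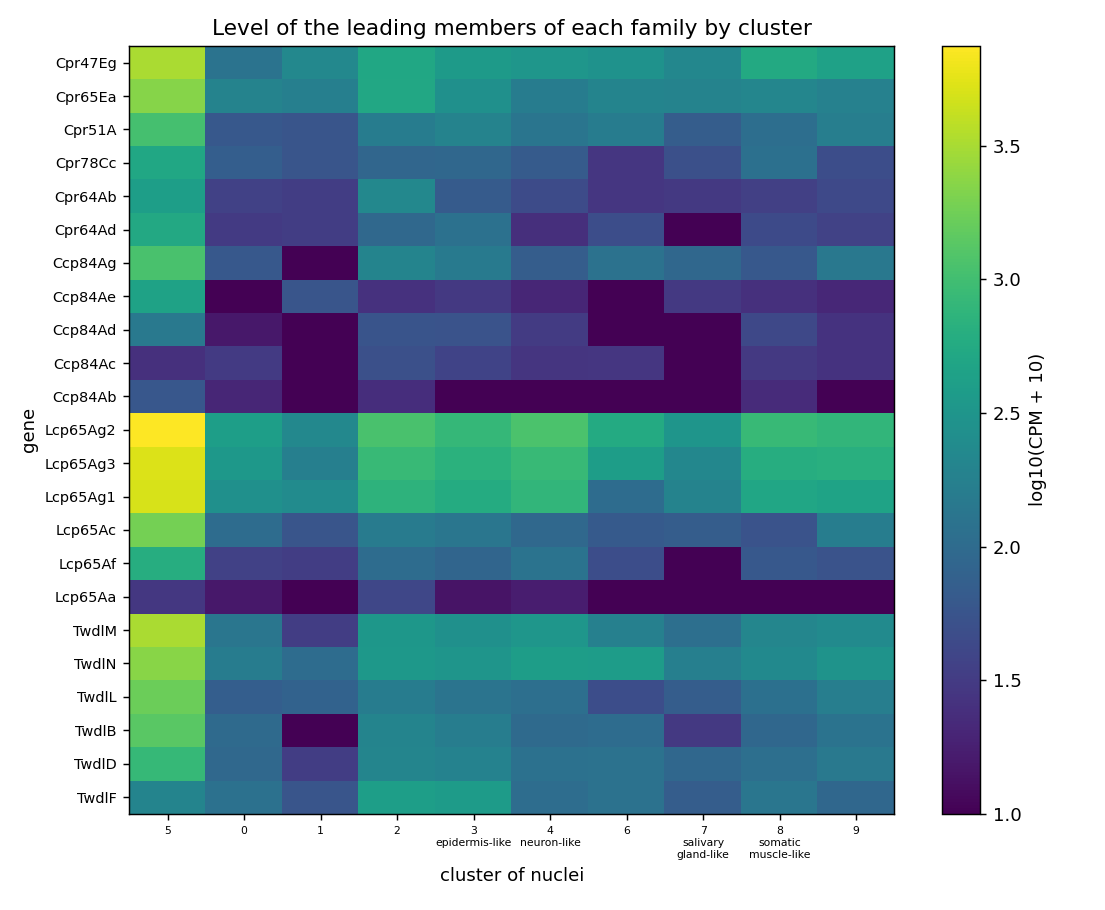
Level of up to 6 leading members of each family in the 10 clusters, as log10(CPM + 10), with cluster 5 at the left. Most genes are highest in cluster 5, whereas TwdlF is highest in clusters 2 and 3 (399 and 366 CPM).

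The epidermis-like cluster had less cuticle protein RNA than the sum of all other nuclei, at 5875 CPM against 10483 CPM (ratio 0.560, 0.531 to 0.591). Its median nucleus was the higher one, with 5691 CPM and 18 cuticle protein UMIs, against 4357 CPM and 13 UMIs in all other nuclei. The sum of the others includes the richest nuclei. The ratios by family were 0.656 for Twdl (0.593 to 0.724), 0.607 for Ccp84A (0.456 to 0.793), 0.581 for Cpr (0.524 to 0.642) and 0.490 for Lcp (0.449 to 0.534). No member of 54 was over 2-fold higher there, against 3.21% of all genes tested, and 15 were over 2-fold lower, against 9.71% of them. The highest member by ratio was Cpr31A in the Cpr family (1.94, 0.825 to 4.10), Ccp84Ac in the Ccp84A family (1.22, 0.463 to 2.71), Lcp65Af in the Lcp family (0.548, 0.325 to 0.873) and TwdlF in the Twdl family (1.92, 1.51 to 2.42). The lowest were Cpr78E and Cpr49Ad, both with 0 UMIs, Ccp84Ab, with 0 UMIs, Lcp65Aa at 0.333 (0.00810 to 2.04) and TwdlX at 0.340 (0.0400 to 1.30). Some of these rest on few UMIs in single nuclei. Without the highest epidermis-like nucleus for each gene, the ratio was 1.1 for Cpr31A, 0.906 for Ccp84Ac and 0.188 for TwdlX, and Lcp65Aa had no UMI left. Without the highest nucleus of the rest, Lcp65Aa was at 0.654.

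The direction of the epidermis-like comparison depended on whether the nuclei of cluster 5 were in the class or in the rest. With cluster 5 taken out of the rest, the ratio was 1.09. At resolution 0.5 the epidermis-like class held 113 nuclei, with all 42 of cluster 5 among them, and the ratio was 4.0. At resolution 1.5 it held 48 nuclei, 36 of them from cluster 5, and the ratio was 6.71. With DAT also left out, 18 of its 95 nuclei came from cluster 5, and the ratio was 1.56. No direction for epidermis-like nuclei as a whole can therefore be given from these data.

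Cuticle protein RNA was present in every cluster. The level was 5672 CPM in neuron-like nuclei, 4804 CPM in somatic muscle-like nuclei and 2286 CPM in salivary gland-like nuclei. For epidermis-like nuclei it was 5875 CPM, close to the neuron-like level in the sum only. The median epidermis-like nucleus had 5691 CPM and the median neuron-like nucleus 3642 CPM, with overlapping ranges. Over the 9 clusters other than cluster 5, the epidermis-like one among them, the summed level ran from 1815 to 7566 CPM, with the highest in the unnamed cluster 2. In the first 3 of these clusters 1 nucleus held a large share of these UMIs, 34.9% in the neuron-like, 38.8% in the somatic muscle-like and 57.5% in the salivary gland-like one. Without that nucleus the levels were 4225, 4231 and 3625 CPM in the same order. The epidermis-like level without its highest nucleus was 5519 CPM. The families kept similar proportions in these 9 clusters, with Lcp at 32.7% to 52.6% of cuticle protein UMIs, Cpr at 21.5% to 37.2%, Twdl at 22.2% to 31.3% and Ccp84A at 1.93% to 4.42%. In cluster 5 the shares were 45.8% Lcp, 25.5% Cpr, 24.7% Twdl and 3.96% Ccp84A, within all of those ranges.

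Shares of nuclei with a UMI were compared at 1000 UMIs a nucleus. An Lcp65Ag UMI was found in 31 of 34 nuclei of cluster 5 (91.2%, exact binomial interval 76.3% to 98.1%) and in 32 of 40 epidermis-like nuclei (80%, 64.4% to 90.9%), but also in 33 of 45 neuron-like nuclei (73.3%, 58.1% to 85.4%) and 20 of 29 somatic muscle-like nuclei (69.0%, 49.2% to 84.7%). The median depths of these clusters before thinning were 2528, 4164, 1700 and 4596 UMIs. The epidermis-like share lay within the interval of the neuron-like one, so no difference between them was detectable at this depth. TwdlM was found in 20 of 34 nuclei of cluster 5 (58.8%, 40.7% to 75.4%) and 13 of 40 epidermis-like nuclei (32.5%, 18.6% to 49.1%). It was found in 7 of 45 neuron-like nuclei (15.6%, 6.49% to 29.5%) and 5 of 29 somatic muscle-like nuclei (17.2%, 5.85% to 35.8%). The epidermis-like interval overlapped those of the other clusters named. TwdlF was found in 10 of 40 epidermis-like nuclei (25%, 12.7% to 41.2%), against 3 of 45 neuron-like nuclei (6.67%, 1.40% to 18.3%), with overlapping intervals. Unthinned, TwdlM had a UMI in 30 of 42 nuclei of cluster 5 and 19 of 63 neuron-like nuclei, TwdlF in 18 of 43 epidermis-like and 19 of 63 neuron-like nuclei, and Lcp65Ag genes in 41 of 42 nuclei of cluster 5, 41 of 43 epidermis-like, 46 of 63 neuron-like and 30 of 31 somatic muscle-like nuclei.

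The families were co-detected in most nuclei. Of the 270 nuclei thinned to 1000 UMIs, 258 had a cuticle protein UMI, and 217 had UMIs of at least 2 families (80.4%, 75.1% to 84.9%). UMIs of all 4 families were found in 29 nuclei, of 3 in 116, of 2 in 72, of 1 in 41 and of none in 12. Singly, Lcp was found in 79.3% of these nuclei, Cpr in 74.1%, Twdl in 68.5% and Ccp84A in 18.5%. At these rates most nuclei would hold at least 2 families even if each were found independently of the others. The share of 80.4% alone therefore shows no association between families. Twdl UMIs were found in 74.5% of the 200 nuclei with a Cpr UMI (67.9% to 80.4%), against 51.4% of the 70 without (39.2% to 63.6%). Lcp UMIs were found in 84.3% of the 185 nuclei with a Twdl UMI (78.3% to 89.2%), against 68.2% of the 85 without (57.2% to 77.9%). Ccp84A UMIs were found in 21.0% of the nuclei with a Cpr UMI (15.6% to 27.3%), against 11.4% of those without (5.07% to 21.3%), with overlapping intervals. Across the same nuclei at full depth, on log-transformed levels, Pearson correlations between families were 0.63 for Cpr and Lcp, 0.53 for Lcp and Twdl and 0.52 for Cpr and Twdl, and 0.20 to 0.28 for pairs with Ccp84A. These nuclei share 1 library and differ in depth, and the values are a description.

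Pairs of genes followed the abundant members. Between families, Lcp65Ag2 was found together with Cpr47Eg in 52 of the 270 thinned nuclei and with Cpr65Ea in 47, Lcp65Ag3 with Cpr47Eg and with TwdlM in 46 each, and Lcp65Ag1 with Cpr47Eg in 43. TwdlM was found in 35.1% of the 131 nuclei with Lcp65Ag3, against 10.8% of the nuclei without it. Cpr65Ea was found in 34.1% of the 138 nuclei with Lcp65Ag2, against 15.2% of those without. Within a family, the Lcp65Ag copies led with 77, 67 and 61 nuclei, followed by Cpr65Ea and Cpr47Eg with 25 and by Lcp65Ac and Lcp65Ag3 with 24. Because the split of the near-identical Lcp65Ag copies is uncertain, so is their co-detection with each other. Lcp65Ag3 was in 80% of the 30 nuclei with Lcp65Ac and in 44.6% of those without.

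Other genes of the cuticle were compared between cuticle-rich nuclei and all other nuclei. In that comparison 43 of the 54 members were over 2-fold higher, which the choice of the nuclei fixes, against 3.77% of all genes with at least 20 UMIs. None of the 54 was over 2-fold lower, against 4.18% of all genes. Of the other structural cuticle proteins, 7 of the 11 with at least 20 UMIs were higher and 1, obst-H with 22 UMIs in 2 nuclei, was lower. Their summed level was 2074 CPM in cuticle-rich nuclei and 665 CPM in all others, 3.12-fold (2.86 to 3.41). The chitin-binding obst-E was 8.03-fold higher (388 against 48.3 CPM, 6.15 to 10.5), Vajk2 5.64-fold and the chitin-binding obst-A 2.10-fold. Gasp, a chitin-binding protein that is also on the chitin and tracheal lists, had a ratio of 1.40 (1.13 to 1.71). Without the 2 richest nuclei the count was again 7.

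Of the genes of chitin synthesis and modification, 9 of 26 were over 2-fold higher and none lower, and their sum was 1.44-fold higher (3832 against 2669 CPM, 1.36 to 1.52). These were the chitin deacetylases verm (2.13-fold), Cda4 and Cda5, the chitinases Cht5, Cht6 and Cht7, reb and exp, which are needed for chitin deposition, and Gfat1, of the synthesis of the chitin precursor (3.21-fold). Cht5 had a ratio of 3.67, and of 1.56 without the 1 cuticle-rich nucleus that held 25 of its 43 UMIs there. Of the 4 with the most UMIs only verm passed. Idgf6 had a ratio of 0.589 (0.482 to 0.713), Idgf4 of 0.914 (0.765 to 1.09) and the deacetylase serp of 1.98 (1.65 to 2.38). In tanning and crosslinking, 2 of 10 genes were over 2-fold higher, the tyrosine hydroxylase ple (2.53-fold, 1.68 to 3.76) and the dopa decarboxylase Ddc (3.06-fold, 1.90 to 4.86). The ratios of y (3.06) and e (2.96), with 27 and 25 UMIs in all, did not pass on the scale of CPM + 10. Catsup had a ratio of 1.06, stw, the laccase of cuticle hardening, of 1.78, and amd of 0.593.

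The lists of regulators did not stand out from all genes. Of 17 genes of the ecdysone response and of molting none was over 2-fold higher and 1 was lower. That 1 was the nuclear receptor Eip78C (58.5 against 165 CPM, 0.354, 0.224 to 0.537). Over all 7983 genes the shares were 3.77% higher and 4.18% lower, so low counts in lists this short set regulators apart in neither direction. The median log2 ratio on the scale of CPM + 10 was -0.17 for the 17 genes and -0.13 for all genes. The nuclear receptor genes ftz-f1 (0.933), Hr4 (0.535) and Eip75B (1.08) and the zinc finger gene crol (0.886) were within 2-fold. Of 12 regulators of the epidermal barrier none passed 2-fold in either direction, and their median log2 ratio was -0.15. The ratios were 1.35 for vvl, 1.2 for grh, 0.751 for ovo and 0.838 for SoxN.

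**Figure D5:**
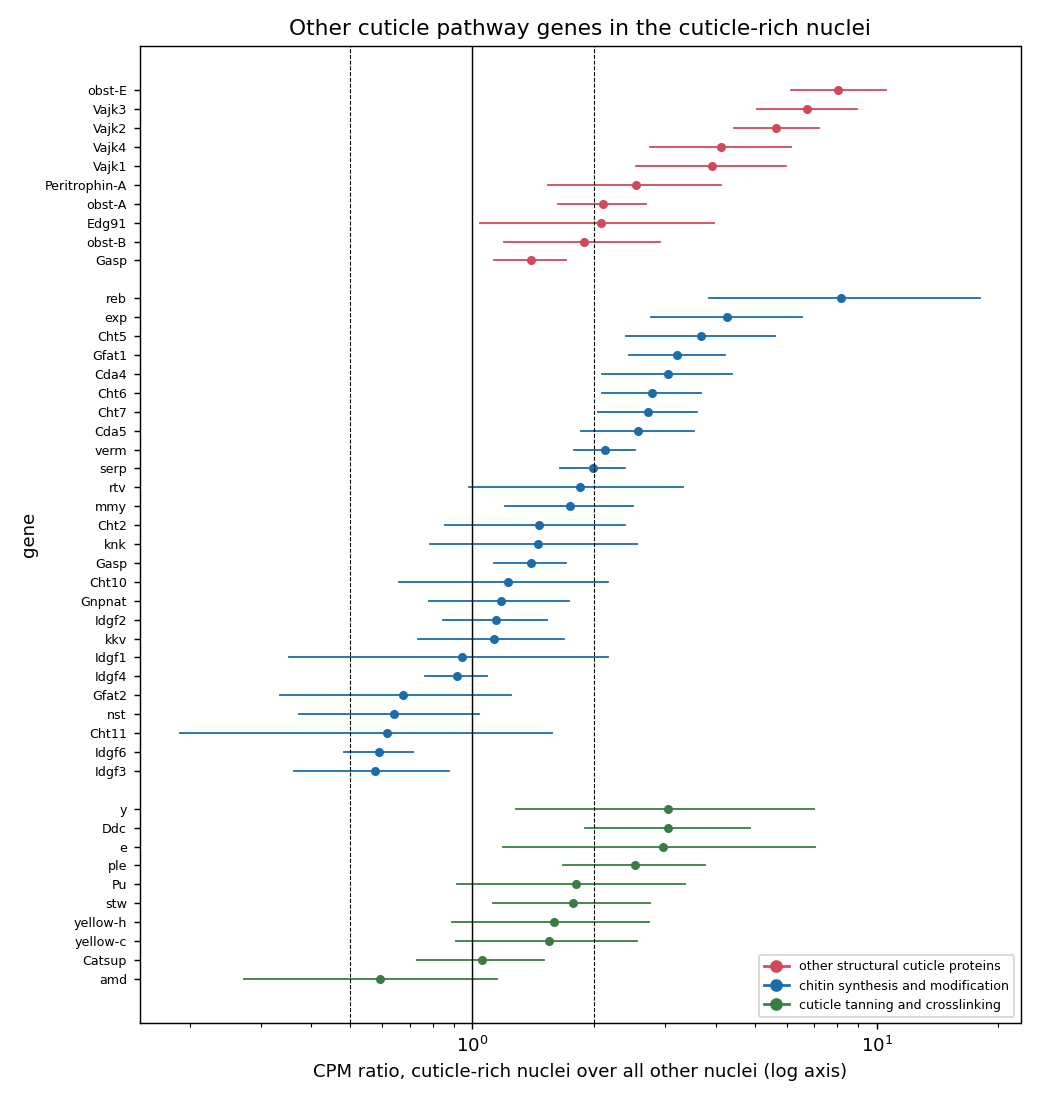
Ratio of CPM in cuticle-rich nuclei over all other nuclei for genes of 3 pathway lists with at least 20 UMIs and a UMI in both groups, on a log axis, with exact 95% intervals of counting error and dashed lines at 2-fold in either direction. The chitin-binding obst-E (8.03-fold) and reb (8.15-fold) stand highest, and Idgf6 (0.589) is among the lowest.

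Markers of the cell types that could make cuticle were split in the cuticle-rich nuclei. Of 25 epidermis markers 4 were over 2-fold higher, the Osiris genes Osi15 (2.93-fold), Osi18 (2.24-fold), Osi19 (2.24-fold) and Osi20 (4.14-fold), and m and neo were lower. Without the cuticle-rich nucleus with the most UMIs of each, the ratios were 2.35 for Osi20, 1.36 for Osi18, 1.49 for Osi19 and 0.252 for neo. The other Osiris genes on the list did not pass 2-fold on the scale of CPM + 10, with ratios of 0.671 for Osi6, 0.620 for Osi7, 0.940 for Osi9 and 0.467 for Osi14. The ratio of Osi9 was 0.610 without its highest cuticle-rich nucleus and 1.38 without its highest other nucleus, and that of Osi14 was 0.706 without its highest other nucleus. The summed epidermis list was 5258 CPM in cuticle-rich nuclei and 5972 CPM in all others. Of 8 tracheal markers 1, pio, was over 2-fold higher (3.44-fold, 2.45 to 4.81), and their sum was 931 against 677 CPM. The part of either cell type in the cuticle level was not tested.

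Genes outside the families were ranked by how their level followed that of the summed cuticle protein genes, over the 270 nuclei with at least 1000 UMIs and 5679 genes with at least 50 UMIs in at least 20 nuclei. The most alike were l(2)34Fc (Pearson correlation 0.65), CG13731 (0.65), obst-E (0.59), CG17290 (0.58), CG31626 (0.58), CG32694 (0.58), CG30457 (0.57), frm (0.57), CG1368 (0.57) and CG10953 (0.57). CG17290 had 2784 CPM in cuticle-rich nuclei and 273 CPM in all others. At 1000 UMIs a nucleus it was found in 24 of 47 cuticle-rich nuclei and 44 of 223 others, and l(2)34Fc in 14 of 47 and 6 of 223. Cuticle-rich nuclei are cut from the same sum, so higher values of these genes there follow from the ranking. These correlations describe nuclei of 1 library.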

How the data were processed

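The deposited matrix holds whole-number counts per gene and nucleus, read as raw UMI counts from their values and from the 10x Genomics platform named in the labels. The build is dm3, per the submitters' processing notes, and the sources used here do not give the aligner, counter or barcode filters. Each of the 318 nuclei passed a minimum of 200 genes.

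Members and lists were chosen with earlier results of these data known. Clustering (scanpy 1.11.5, igraph 0.11.9) scaled nuclei to 10000 UMIs, took logs, left out members and pathway lists, and used 2000 variable genes found in at least 3 nuclei, 20 components, 10 neighbours, Leiden resolution 1.0 and seed 0. Uncharacterised cuticle-like genes stayed in. A cluster took the name of the marker list with the most genes, at least 3, over 2-fold higher with 5 UMIs. The fat body, midgut and germ cell names the rule gave to clusters 0, 1, 6 and 9 were not used, a choice made after their genes were seen. An error in list matching, which had taken DAT for the gene Dat, was corrected after a first round of results, and the corrected clusters are the ones reported.

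Counts past 2-fold used CPM + 10 and genes with at least 20 UMIs. Ratios in the text leave that addition out. Exact 95% intervals are Clopper-Pearson for shares, Poisson for levels and conditional binomial for ratios. Gene order and span came from a reference release other than dm3, in which all 117 symbols were found. Of the list genes, 2 pathway genes were found through an older symbol, and 8 pathway and 3 marker genes were not found. Scrublet called 8 nuclei as doublets, which were kept. Described genes were the 6 with the most UMIs in each family, the highest and lowest ratio in epidermis-like nuclei, the leading pairs, the 10 most alike genes and up to 4 of each pathway list. Other members were named after their values were seen. The calculation of folds was checked on simulated counts with known folds. Alternatives are in the closing section.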

Additional observations from a re-analysis of the deposited data

How the results depend on the processing

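The clustering decided the epidermis-like result. The ratio of all cuticle protein RNA, 0.560 as reported, was 4.0 at resolution 0.5, 6.71 at resolution 1.5, 1.56 with DAT also left out of the clustering and 1.09 with cluster 5 taken out of the rest. The last 2 of these, and all alternatives for cluster 5, were chosen after the data were seen. In the same order (resolution 0.5, resolution 1.5, DAT left out) the ratio of Cpr was 3.48, 5.83 and 1.71, that of Ccp84A 4.87, 4.31 and 4.42, that of Lcp 4.31, 7.67 and 1.44, and that of Twdl 4.0, 6.60 and 1.42. Members over 2-fold higher, 0 as reported, were 38, 43 and 12. With the same clusters the ratio of all members was 0.613 without the richest nucleus of each group, 0.635 with nuclei thinned to 1000 UMIs and 0.593 with nuclei weighed the same. Without the richest nuclei Cpr had 0.648 and Twdl 0.731, thinned Ccp84A had 1.2, Lcp 0.538 and Twdl 0.800, and weighed the same Lcp had 0.557. The count of members over 2-fold higher was 1 when thinned, 1 with a minimum of 10 UMIs and 2 with no minimum beyond 1 UMI.

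Cluster 5, at 8.13-fold, or the cluster with the highest level in its place, had a ratio of 4.0 at resolution 0.5, 8.61 at resolution 1.5, 9.52 with DAT left out, 6.45 without the richest nuclei, 8.46 when thinned, 8.77 without the highest doublet scores and 8.87 with nuclei weighed the same. Its 44 members over 2-fold higher became 21 when thinned, where fewer were tested, and 35 to 47 under the others. The share of the 10 richest nuclei, 48.7%, was 35.8% thinned, 51.3% without the highest doublet scores and 34.8% without the 2 richest nuclei. Cuticle-rich nuclei, 55 at a minimum of 1%, were 120 at 0.5% and 30 at 2%. Thinning is a random draw, and nuclei with at least 2 families, 80.4% at 1000 UMIs, were 84.4% with another draw. They were 55.1% of 303 nuclei at 500 UMIs, 96.2% of 208 at 2000 UMIs and 93.7% of all 318 at full depth. This share therefore depends on the depth and on the nuclei kept. The 9 chitin genes were 5 when cuticle-rich nuclei began at 0.5%. Where no cause is given, the cause was not tested.

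Leaving out the nucleus with the most UMIs of a gene, an alternative chosen after the data were seen, turned the direction for some genes. Among members in cluster 5 these were Lcp65Aa (0.820) and Cpr31A (0.513), without a nucleus of cluster 5, and TwdlF (1.02), without one outside it. The direction also turned for Ccp84Ac in epidermis-like nuclei, Osi20 in cluster 5 and Osi9 in cuticle-rich nuclei, with the values given above. Values without 1 nucleus for markers, for pathway genes and for members in epidermis-like nuclei are left out of the next counts. Of the other alternative values, 54 stayed close to the reported ones, 56 moved and 20 changed direction. No paired analysis was possible because there is 1 RNA library and no replicate. The intervals leave out variation between nuclei and embryos, and for members with few UMIs the intervals are too wide at this depth to show a difference.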

Other observations

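The genes that followed the cuticle protein sum least were Eip78C, a nuclear receptor of the ecdysone response (Pearson correlation -0.23), Ephrin (-0.21) and Rap2l (-0.20). Ephrin had 117 CPM in cuticle-rich nuclei and 161 CPM in all others, a direction that follows from how it was picked.

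In cluster 5 the tanning genes e (6.99-fold), y (4.45-fold) and yellow-c (2.48-fold) passed 2-fold over all other nuclei, beside Ddc (4.0-fold) and ple (3.84-fold), so 5 of the 10 tanning genes with at least 20 UMIs were, against 4.23% of all genes with as many. The counts for e and y were 25 and 27 UMIs in the whole library. The fat body list was lower in cluster 5 (1378 against 5579.5 CPM), with apolpp and srp past 2-fold, and its level in the median nucleus was 1279 against 1405 CPM.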
